A study of Mus musculus with 28 samples.

Results

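The proteasome genes of the mouse were followed in C10 cells, a Pre-B cell line derived from HAFTL cells, while the cells were converted into macrophages. The members were all genes of the expression table whose symbol is Psm, one letter from a to g and a number, with or without a final letter, except the inducible subunits Psmb8, Psmb9 and Psmb10. The rule found 46 of the 55450 genes, and 45 of them had a mean of at least 0.1 TPM (the share of all transcripts, per length, scaled to a fixed total) over all libraries. The gene that did not was Psma8, an alpha subunit known from testis, which was listed at 0 in all 12 libraries. RNA-seq covered 4 groups of 3 libraries, named 0h (uninduced), 1h, 12h and 48h after the time since the addition of 100 nM β-estradiol together with 10 nM IL-3 and CSF-1. All groups, the uninduced one included, carry the C/EBPαER transgene, in which C/EBPα is fused to the hormone-binding domain of the estrogen receptor, and all come from 1 cell line, so effects of the transgene, the hormone, the cytokines and time in culture cannot be told apart. Promoter Capture Hi-C, which lists the genomic fragments in contact with captured promoters, gave 1 list of interactions per time point.

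The proteasome degrades proteins tagged with ubiquitin. Its 20S core is a barrel of alpha and beta rings with the proteolytic sites inside, and the 19S regulatory particle, built of a base with 6 ATPases and a lid, binds, unfolds and feeds in the substrates. Dedicated chaperones assemble both particles, and other caps (PA28 and PA200) can take the place of the 19S particle. In lymphocytes and macrophages the inducible catalytic subunits and PA28 are known for producing peptides for antigen presentation.

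The libraries followed their labels. Of 10 Pre-B cell markers 9 fell by 48h, and the sum over the 10 went from 331 to 361 at 0h to 47.7 to 55.7 at 48h. Of 10 macrophage markers 9 passed the filter of 0.1 TPM and were tested, and all 9 rose. The sum over the 10 went from 12.7 to 15.3 at 0h to 869 to 912 at 48h. The 6 T cell and 6 erythroid markers and the 5 fibroblast markers summed to at most 0.288 in any library. One ribosomal RNA locus (CT010467.1 and AY036118) took 70.3% to 82.9% of all TPM, and the TPM of the other genes move with that share. Levels are therefore given as scaled TPM, the deposited TPM divided by a size factor of the library (time point means from 0.699 for 48h to 1.47 for 1h). TPM keep no record of depth, so counting errors are unknown here. The 48h replicate 3 stood apart: its correlation with the other 48h libraries was 0.861 and 0.869 over the tested genes, against 0.897 to 0.916 for every other pair of the same time point. In it 7 members (15.6%) lay above and 6 (13.3%) below both other 48h libraries by more than 0.5 on the log2 scale. The shares of all tested genes were close to these, at 15.5% and 11.8%. In the other libraries 0 to 2 members lay above and 0 to 4 below. Results at 48h are given with and without it where they changed. The labels do not say whether replicates were separate cultures, so p-values measure the spread between these samples only.

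The summed level of the proteasome genes was lower at every induced time point in scaled TPM, and as deposited at 48h alone. Before induction it was 503 ± 9.61 scaled TPM, and 409 ± 13.4 were left after 1h, 407 ± 21.2 after 12h and 352 ± 10.4 after 48h (each with the SD of 3 libraries). All 9 induced libraries, at 341 to 425, lay below the lowest 0h library at 494. As deposited the order differed, since the sum was 468 ± 44.0 TPM before induction, 603 ± 62.6 after 1h, 481 ± 83.2 after 12h and 246 ± 16.4 after 48h (SD, n = 3). In these bulk samples, fewer cells of a type and less RNA per cell cannot be told apart.

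At 0h the members spanned a wide range of levels. Psme3, the nuclear PA28 gamma activator, stood first with 27.2 ± 4.66 scaled TPM (SD, n = 3), followed by Psme1 (22.6 ± 4.46), Psma7 (22.6 ± 1.51), Psma6 (21.9 ± 2.71), Psmb4 (21.1 ± 2.54), Psma1 (20.1 ± 3.28) and Psmd8 (19.7 ± 1.09). Neighbours in that order differed by less than the larger of their SDs. The assembly chaperones Psmg1 to Psmg4 were low, at 2.03 to 3.80, and Psmb11, a beta subunit known from thymus epithelium, was near the limit of the filter with 0.077 ± 0.033 before and 0.167 ± 0.062 after 48h of induction (SD, n = 3). At 48h Psme1 stood alone at the top with 42.1 ± 10.3, and its lowest library, at 30.2, exceeded the mean of every other member. Psmd8 came next with 16.0 ± 2.26, within its spread of Psmc6 (15.1 ± 5.31), Psmb2 (14.5 ± 0.686) and Psmd11 (13.8 ± 2.53). Psmb5 went from rank 26 to rank 35, and Psme2b from rank 44 to rank 24.

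**Figure D1:**
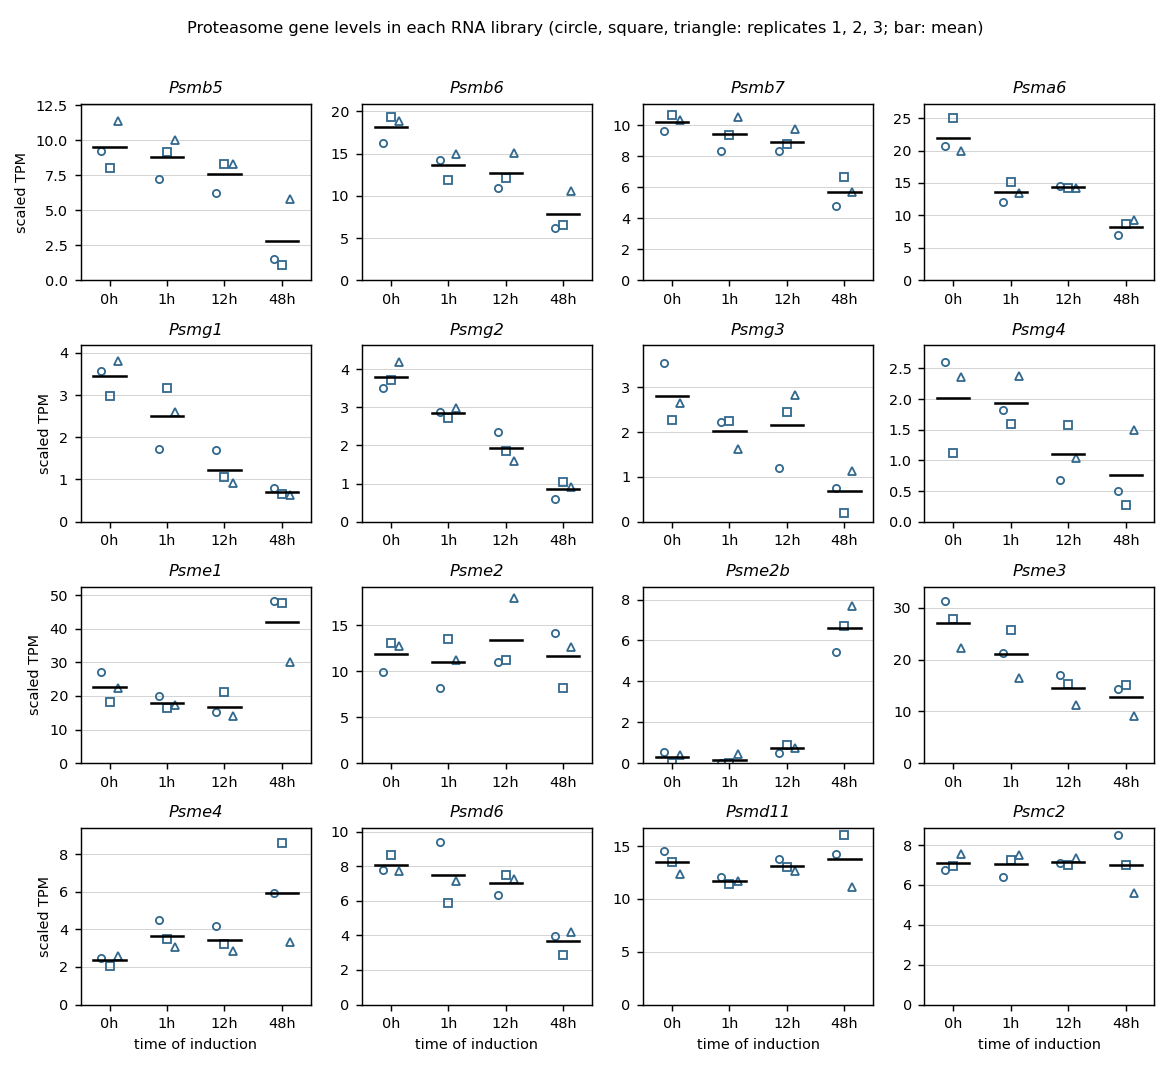
Level of 16 proteasome genes in each of the 12 RNA libraries (y axes: scaled TPM, from 0; x axes: time of induction; circles, squares and triangles: replicates 1, 2 and 3; bars: means). The means of Psmg1 and Psmg2 were lower at each later time point, Psmb5 was lower in 48h replicates 1 and 2 (1.498 and 1.10) than in replicate 3 (5.83), Psme2b stood at 5.43 to 7.70 at 48h only, and Psmc2 had means of 7.02 to 7.14.

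The first comparison asked what followed within 1h of induction. Of the 45 tested members 5 fell and none rose, where 4.92% of the 16415 tested genes were called lower and 5.42% higher (limma, Benjamini-Hochberg adjusted p under 0.05). The 5 genes were Psma1, Psma2 and Psma6 of the alpha ring, Psmb4 of the beta ring and Psmd8 of the lid, all 7 alpha subunits had every 1h library below every 0h library, and 38 of the 45 members had a negative fold change. Psma6 was at 20.8, 25.0 and 19.97 scaled TPM at 0h and at 12.1, 15.1 and 13.4 at 1h. The difference in log2 scaled TPM was −0.69 ± 0.14 (SE, limma, adjusted p = 0.0114). Psmb4 was at 24.0, 19.3 and 19.97 at 0h and at 12.5, 12.3 and 13.6 at 1h. The largest fall of the 5 was that of Psmb4, with a log2 fold change of −0.71 ± 0.20 (SE, limma, adjusted p = 0.0461).

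The median log2 fold change of the members at 1h was −0.19, beside 0.021 over all tested genes and −0.091 over those with a mean TPM of at least 1. Libraries of the 2 time points did not overlap for 17 members that were lower and 2 that were higher, where 16.2% and 16.3% of all tested genes did so. At an unadjusted p under 0.05, 10 members were lower and 0 higher, and beyond 1 on the log2 scale 0 were called lower or higher, where 2.83% and 4.08% of all genes were. The direction rested on the scaling. With TPM as deposited 8 members rose and 0 fell, against 24.1% and 1.41% of all tested genes, and the members' median was 0.44 where that of all genes was 0.59. With quantile normalization or a rescaling without the 20 most abundant genes 0 members fell. The members' median lay below that of all genes on both scales, and none of the 5 calls held under these other scalings. The count also fell when most single libraries were left out: 1 member was called lower without 0h replicate 2 or 1h replicate 3, 2 without 0h replicate 1, 0h replicate 3, 1h replicate 1 or 12h replicate 2, and 3 without 1h replicate 2, 12h replicate 1, 12h replicate 3 or 48h replicate 2.

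At 12h, 9 members were lower than at 0h and 0 higher, where 14.5% of all tested genes were called lower and 16% higher. Psma1, Psma2, Psma6, Psmb4 and Psmd8 were again among those that fell, and the others were Psmd7 of the lid, the activator Psme3 and the chaperones Psmg1 and Psmg2. The median over the 45 members was −0.21, beside 0.069 over all genes and −0.054 over those with a mean TPM of at least 1. At an unadjusted p under 0.05, 14 were lower and 0 higher, and 17 lay wholly below and 2 wholly above their 0h libraries, against 21.3% and 23.7% of all genes. Beyond 1 on the log2 scale 1 was lower (Psmg1) and 0 higher, where 9.39% and 12% of all genes were.

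Psmg1 and Psmg2, partners in the chaperone that guides the assembly of the alpha ring, fell furthest at 12h. Psmg1 was at 3.57, 2.97 and 3.80 scaled TPM before induction, 1.73, 3.16 and 2.60 after 1h and 1.70, 1.07 and 0.916 after 12h. Its log2 fold change at 12h was −1.45 ± 0.27 (SE, limma, adjusted p = 0.00179). Psmg2 was at 3.501, 3.72 and 4.19 before induction, 2.88, 2.71 and 2.99 after 1h and 2.35, 1.86 and 1.60 after 12h. That gave a log2 fold change of −0.95 ± 0.21 (SE, limma, adjusted p = 0.0062). Both genes had every 12h library below every 0h library. Psme3 was next, at 31.4, 27.9 and 22.2 at 0h and at 17.1, 15.2 and 11.2 at 12h. The log2 fold change of Psme3 was −0.91 ± 0.24 (SE, limma, adjusted p = 0.0162), and the call was lost without 0h replicate 1 or without 12h replicate 3. With TPM as deposited only 1 member was called lower at 12h, against 7.82% of all genes, and the median of the members was 0.13 beside 0.34 over all genes.

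After 48h, when the cells expressed the macrophage markers, 26 members had fallen and 3 had risen, against 22% and 24.5% of all tested genes. The median of the 45 members was −0.70, beside 0.072 over all genes and −0.095 over those with a mean TPM of at least 1, and 40 had a negative fold change. Beyond 1 on the log2 scale 13 were lower and 2 higher, where 17.6% and 19.6% of all genes were. Libraries did not overlap for 29 lower and 4 higher members, against 23.9% and 27.2% of all genes. Without 48h replicate 3, 28 members were lower and 3 higher, all 29 of the first calls among them, with Psmd2 and Psmd9 added. With TPM as deposited 36 members fell and 1 rose, against 27.2% and 15.9% of all genes, with a median of −1.10 beside −0.18.

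Most subunits of both rings of the 20S core fell. In the alpha ring 6 of 7 tested subunits were lower, with a median of −0.92, and the ring's summed level at 48h was 53.8% of that at 0h. Psma6 had fallen most, to 6.95, 8.64 and 9.26 scaled TPM, with a log2 fold change of −1.40 ± 0.14 (SE, limma, adjusted p = 1.2e-05). Psma7, the most abundant alpha subunit, had a log2 fold change of −0.79 ± 0.15 (SE, limma, adjusted p = 0.00101). Psma4 was the exception: its 48h libraries (11.7, 10.9 and 11.3) overlapped those of 0h (13.0, 11.1 and 12.4). In the beta ring 6 of 8 were lower, with a median of −0.77 and a sum of 56.3% of that at 0h, and Psmb2 (−0.27, limma, adjusted p = 0.0869) and Psmb11 (0.58, adjusted p = 0.206) were not called.

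**Figure D2:**
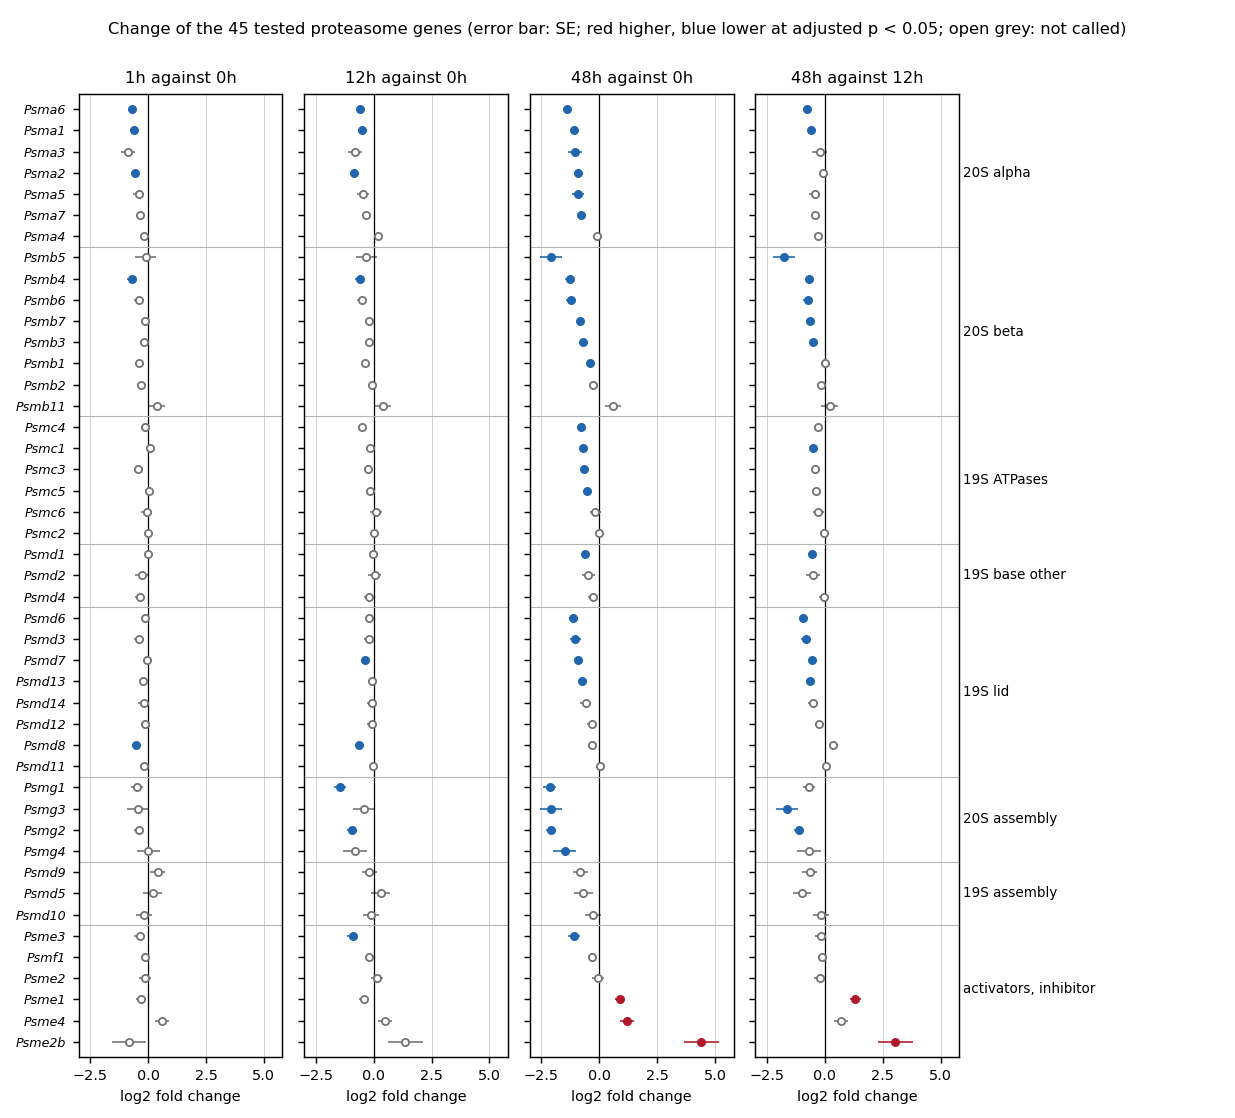
Log2 fold change of the 45 tested proteasome genes in 4 comparisons, ordered by role (points: limma estimates; bars: SE; blue, called lower; red, called higher; open grey, not called). At 48h against 0h, 26 points are blue and 3 red, and all 4 chaperones of the 20S core lie between −1.5 and −2.15.

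The catalytic subunits Psmb5, Psmb6 and Psmb7, which carry the chymotrypsin-like, caspase-like and trypsin-like sites, all fell by 48h. Psmb5 was at 9.25, 8.02 and 11.4 scaled TPM before induction, 7.22, 9.16 and 9.99 after 1h, 6.25, 8.30 and 8.32 after 12h and 1.498, 1.10 and 5.83 after 48h. The 48h libraries lay below all others, but replicate 3 was several times higher than the other 2. The log2 fold change of Psmb5 at 48h was −2.09 ± 0.46 (SE, limma, adjusted p = 0.00328), and without replicate 3 it was −2.78 (adjusted p = 5.1e-06). Psmb6 was at 16.3, 19.3 and 18.8 at 0h and at 6.25, 6.61 and 10.6 at 48h. The log2 fold change came to −1.24 ± 0.21 (SE, limma, adjusted p = 0.000462). Psmb7 was at 9.62, 10.7 and 10.4 at 0h and at 4.81, 6.66 and 5.69 at 48h. This was a log2 fold change of −0.84 ± 0.15 (SE, limma, adjusted p = 0.000701). None of the 3 catalytic genes was called at 1h or 12h. Of the annotated exon bases of Psmb5 12.1% are shared with Mir686 on the same strand, and of those of Psmb7 11.8% with Nek6 on the opposite strand, and the library kit does not mark the strand.

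Of the genes of the 19S particle a part fell. Of the 6 ATPases of the base 4 were lower, with a median of −0.60, while Psmc2 (6.73, 6.95 and 7.57 at 0h and 8.49, 6.998 and 5.57 at 48h) and Psmc6, the most abundant ATPase by the mean over all 12 libraries, were not called. Psmd1, a scaffold subunit of the base, fell (log2 fold change −0.60), while Psmd2, the other scaffold (−0.47), and Psmd4, a ubiquitin receptor (−0.28), were not called. In the lid 4 of 8 were lower, with a median of −0.66. Psmd6 was at 7.77, 8.66 and 7.72 at 0h and at 3.97, 2.86 and 4.20 at 48h. Psmd7 was at 11.3, 10.7 and 10.6 at 0h and at 5.83, 5.63 and 5.41 at 48h with no overlap. Psmd3 and Psmd13 were the others. Psmd14, the deubiquitinase of the lid, missed the threshold (−0.59 ± 0.23, SE, limma, adjusted p = 0.054), although its libraries did not overlap. Psmd11 was the only lid gene with a positive value (0.021, limma, adjusted p = 0.937), and its libraries overlapped. The summed level at 48h was 72.0% of that at 0h for the ATPases, 74.2% for the other base subunits and 69.5% for the lid.

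The 4 chaperones of the 20S core, Psmg1, Psmg2, Psmg3 and Psmg4, all fell beyond 1 on the log2 scale, with a median of −2.08, and their summed level at 48h was 24.8% of that at 0h. Psmg1 was at 0.797, 0.655 and 0.639 scaled TPM at 48h, 4.94-fold lower than at 0h by the means. On the log2 scale the change was −2.15 ± 0.27 (SE, limma, adjusted p = 4.95e-05). Psmg2 was at 0.590, 1.05 and 0.905, with a log2 fold change of −2.07 ± 0.21 (SE, limma, adjusted p = 1.22e-05). The 48h libraries of these 2 genes lay below those of every earlier time point. Psmg3 was at 3.54, 2.27 and 2.64 at 0h and at 0.749, 0.195 and 1.14 at 48h, with a log2 fold change of −2.08 ± 0.48 (SE, limma, adjusted p = 0.00392). Of the annotated exon bases of Psmg3 9.68% are shared with Gm26938 on the same strand. Psmg4 was at 2.60, 1.119 and 2.36 at 0h and at 0.494, 0.279 and 1.49 at 48h. The libraries of Psmg4 overlapped, since the highest 48h value came from replicate 3, and its log2 fold change of −1.5 ± 0.50 (SE, limma, adjusted p = 0.0296) was −2.08 without that library and lost its call with only the 6 libraries compared (adjusted p = 0.122). Psmg4 also lost its call without 0h replicate 1, 0h replicate 3, 48h replicate 1 or 48h replicate 2 (limma, adjusted p = 0.0942, 0.0954, 0.0908 and 0.124). The levels of these genes are low, and with a pseudocount of 1 in place of 0.1 the log2 fold changes were −1.39 for Psmg1, −1.20 for Psmg3 and −0.81 for Psmg4. Of the chaperones of the 19S base, Psmd5, Psmd9 and Psmd10, none was called, with a median of −0.68.

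**Figure D3:**
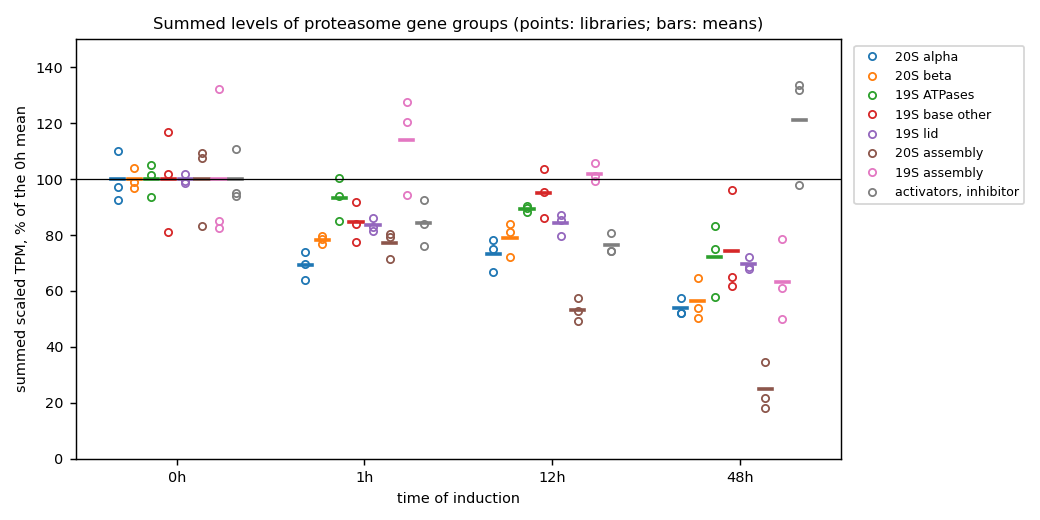
Summed scaled TPM of 8 role groups of proteasome genes as a percent of their 0h mean (points: the 12 libraries; bars: means of 3; y axis from 0). At 48h the 20S assembly chaperones stand at 18.0% to 34.5%, the rings of the core at 50.2% to 64.8%, and the activators and inhibitor at 97.8% to 134%.

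The activators went the other way in part. Of 6 tested genes of activators and inhibitor, Psme1, Psme4 and Psme2b rose by 48h, Psme3 fell, and Psme2 and the inhibitor Psmf1 were not called. Psme1, the alpha chain of PA28, was at 27.2, 18.3 and 22.3 scaled TPM before induction, 19.9, 16.5 and 17.4 after 1h, 15.1, 21.1 and 14 after 12h and 48.4, 47.6 and 30.2 after 48h. Its log2 fold change at 48h was 0.88 ± 0.22 (SE, limma, adjusted p = 0.00704), and 1.11 without replicate 3. Every 48h library of Psme1 exceeded every earlier one. With TPM as deposited the value was 0.47 (adjusted p = 0.132) and with a rescaling without the 20 most abundant genes 0.81 (adjusted p = 0.0537), so the call held under part of the scalings only. Psme2, the beta chain that forms a ring with Psme1, was at 9.88, 13.1 and 12.7 at 0h and at 14.1, 8.18 and 12.7 at 48h, and the groups overlapped (log2 fold change −0.056, limma, adjusted p = 0.901).

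Psme4 encodes PA200, a nuclear cap of the core. It was at 2.48, 2.03 and 2.57 scaled TPM before induction, 4.48, 3.47 and 3.05 after 1h, 4.16, 3.21 and 2.85 after 12h and 5.91, 8.59 and 3.34 after 48h. All 9 induced libraries lay above the 0h libraries, and the 48h replicate 3 lay among those of 1h and 12h. The log2 fold change of Psme4 was 1.20 ± 0.30 at 48h (SE, limma, adjusted p = 0.00647), and 1.57 without replicate 3. Its values of 0.60 at 1h and 0.50 at 12h were not called (limma, adjusted p = 0.242 and 0.241). As deposited the 48h value was 0.80 and missed the threshold (adjusted p = 0.0526), as it did with only the 6 libraries compared (1.17, adjusted p = 0.054). Psme3, the most abundant member at 0h, was at 14.3, 15.1 and 9.14 at 48h, with a log2 fold change of −1.09 ± 0.24 (SE, limma, adjusted p = 0.00345). Psmf1, which encodes the inhibitor PI31, was at 3.47, 2.97 and 3.32 at 0h and at 2.12, 2.75 and 2.93 at 48h (log2 fold change −0.32, limma, adjusted p = 0.172).

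Psme2b, a copy of Psme2 without introns, had the largest change of all members. It was at 0.533, 0 and 0.381 scaled TPM before induction, 0, 0 and 0.452 after 1h, 0.516, 0.899 and 0.746 after 12h and 5.43, 6.69 and 7.70 after 48h. The 48h libraries lay far above all others, and the log2 fold change was 4.41 ± 0.75 (SE, limma, adjusted p = 0.000529). The size depended on the value added before the logarithm, from 2.56 with 1 to 5.67 with 0.01, and it was 3.58 without 0h replicate 2, the library at 0. The gene lies on the minus strand at chr11:48945354-48946190 (GRCm38) with 1 transcript of 837 bases, and 789 of 794 aligned bases are identical to Psme2 (99.37%). Of the 738 windows of 100 bases in the transcript, 384 (52.0%) occur letter for letter in Psme2, so that reads of 100 bases from these windows cannot tell the genes apart and the division between them is an estimate of the authors' RSEM step. The alignment covers bases 43 to 836 of Psme2b, so bases outside it are not among the 5 differences. A stretch of 60 coding bases with 3 of the 5 differences is shown, with the differing bases in capitals (GENCODE transcripts, bases 559 to 618 of Psme2b and 685 to 744 of Psme2).
Psme2b: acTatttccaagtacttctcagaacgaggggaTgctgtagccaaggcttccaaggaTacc
Psme2: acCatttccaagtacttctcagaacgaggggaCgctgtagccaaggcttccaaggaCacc

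Psme2b also overlaps another gene of the same strand, 9930111J21Rik1, with 4.9% of its exon bases. That gene was at 1.05, 0.532 and 0.869 scaled TPM at 0h and at 7.25, 4.54 and 9.43 at 48h, so it was higher at 48h as Psme2b was. Whether reads of that gene or of Psme2 contributed to the values of Psme2b was not tested. With Psme2 and Psme2b added together, the ratio of Psme1 to the sum was 2.61, 1.395 and 1.70 at 0h and 2.47, 3.20 and 1.48 at 48h, and the groups overlapped.

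From 12h to 48h, 15 members fell and 2 rose, against 11.9% and 10.5% of all tested genes, with a median of −0.44 beside −0.012 (−0.088 where the mean TPM was at least 1). Psmb5 (−1.77 ± 0.46, SE, limma, adjusted p = 0.0185), Psmg3 (−1.65, adjusted p = 0.0288) and Psmg2 (−1.12, adjusted p = 0.00304) fell most, and Psmb6 (−0.72, adjusted p = 0.0274) and Psmb7 (−0.64, adjusted p = 0.00872) fell with them. Psme2b (3.05, adjusted p = 0.0128) and Psme1 (1.32 ± 0.22, SE, limma, adjusted p = 0.00145) rose. Libraries did not overlap for 20 lower and 2 higher members, against 17.3% and 17.3% of all genes. Beyond 1 on the log2 scale 3 were lower and 2 higher, where 7.72% and 7.56% of all genes were. The count of members lower was 8 without 12h replicate 2 or 12h replicate 3 and 9 without 48h replicate 2, and the calls of Psmb5, Psmb6 and Psmg3 were among those lost each time. Psmb5 and Psmb6 also lost theirs without 48h replicate 1. Without 48h replicate 3 it stayed at 15, of which 13 were the same genes: Psmc1 and Psma1 left, Psmd2 and Psmd5 joined, and Psme4 joined the genes that rose (1.06, adjusted p = 0.00972). As deposited 38 members fell and 1 rose, against 31.7% and 4.1% of all genes.

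Over the 4 comparisons 15 of the 45 members were called in none. The comparisons with 0h share the 0h libraries, so their calls are not independent. Psma1, Psma6 and Psmb4 were lower in all 4, and 10 members were lower in both comparisons of 48h but at neither 1h nor 12h. Psmd8 had a pattern of calls shared by no other member. It was at 20.96, 18.8 and 19.4 scaled TPM before induction and at 13.8, 15.6 and 12.2 after 1h. After 12h it was at 11.6, 13.7 and 12.5, and after 48h at 13.5, 17.8 and 16.7. It was called lower at 1h (−0.51, limma, adjusted p = 0.0431) and 12h (−0.64, adjusted p = 0.00532) but not at 48h (−0.31, adjusted p = 0.0936). The change from 12h to 48h was not called (0.33, limma, adjusted p = 0.124), and the libraries of these 2 time points overlapped. With TPM as deposited neither the 1h nor the 12h call held.

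Ratios between genes within a library do not depend on the scaling, and a set of them was computed after the levels had been seen, as a description with no test. Psmb8, Psmb9 and Psmb10, the inducible subunits that replace Psmb5, Psmb6 and Psmb7, were not called at 48h against 0h (log2 fold changes −0.031, 0.46 and −0.33). Psmb8 over Psmb5 was 1.69, 2.50 and 1.98 at 0h and 11.04, 15.0 and 4.15 at 48h. Psmb9 over Psmb6 was 0.250, 0.328 and 0.326 at 0h and 0.934, 0.973 and 1.06 at 48h. Psmb10 over Psmb7 was 0.861, 0.715 and 1.11 at 0h and 0.891, 1.07 and 2.07 at 48h. The first 2 ratios did not overlap between the time points, with 48h replicate 3 lowest for Psmb8, while the last did overlap. At 12h the 3 mean ratios were 1.35, 0.363 and 0.711. The mean level of the 17 subunits of base and lid over that of 14 core subunits was 0.815 ± 0.036 before induction, 0.967 ± 0.042 after 1h, 0.945 ± 0.038 after 12h and 1.06 ± 0.084 after 48h (SD, n = 3), and every induced library lay above the 0h libraries. The mean of the 4 Psmg genes over that of the alpha subunits was 0.203 ± 0.045 before and 0.0927 ± 0.035 after 48h of induction (SD, n = 3).

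**Figure D4:**
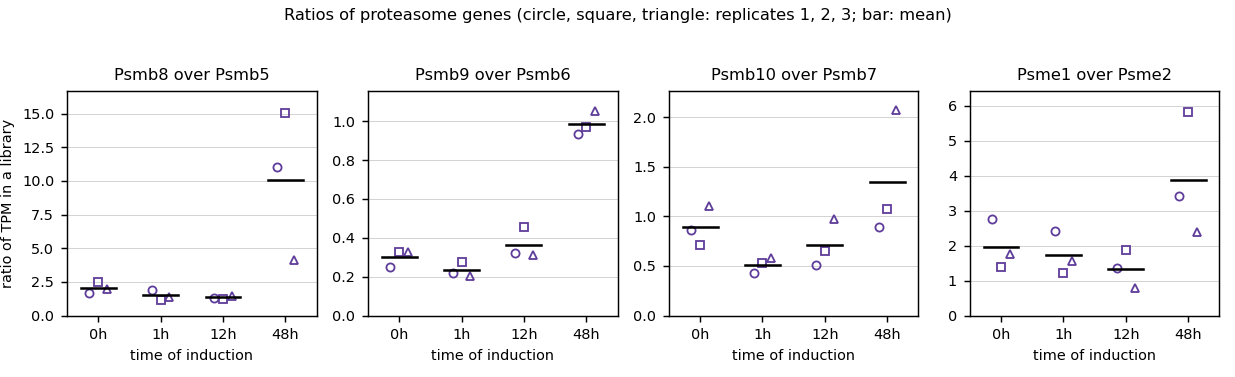
Ratio of the TPM of an inducible catalytic subunit to that of the constitutive subunit it replaces, and of Psme1 to Psme2, in each of the 12 libraries (circles, squares and triangles: replicates 1, 2 and 3; bars: means; y axes from 0). Psmb9 over Psmb6 stands at 0.934 to 1.06 at 48h and at or below 0.455 in all other libraries.

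Other genes of the pathway were listed by role, and 37 of them were tested: 4 rose and 5 fell at 1h (10.8% and 13.5%, against 5.42% and 4.92% of all tested genes), 7 rose and 4 fell at 12h (18.9% and 10.8%, against 16% and 14.5%), and 8 rose and 13 fell at 48h (21.6% and 35.1%, against 24.5% and 22%). From 12h to 48h 7 rose and 8 fell (18.9% and 21.6%, against 10.5% and 11.9%). The shares that rose at 12h and 48h were close to those of all genes. The 5 shuttle receptors, which carry ubiquitin-tagged proteins to the proteasome, all fell by 48h with a median of −0.79. Of 9 subunits and bound factors without a Psm symbol 4 fell, Txnl1 most (−1.34, limma, adjusted p = 0.000779), and 1, Zfand2a, rose (1.07, adjusted p = 0.0193). As deposited 6 of these 9 fell and 0 rose, so the call of Zfand2a was lost. Of 4 other assembly factors only Pomp, the maturation factor of the core, fell (−0.95, limma, adjusted p = 0.0016). The inducible subunit Psmb8 was lower at 12h than at 0h (−0.91, limma, adjusted p = 0.0076) and higher at 48h than at 12h (0.88, adjusted p = 0.012). Neither call held with TPM as deposited. The value at 12h against 0h was then −0.57 (limma, adjusted p = 0.114), and 0 of the inducible subunits were called higher from 12h to 48h.

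The genes listed around NFE2L1, the factor that raises proteasome genes when proteasome activity is short, went in both directions. They include Nfe2l2 and Bach1 and were not sorted by whether they raise or lower its activity, so counts of rises do not measure that activity. Of these 10 genes 3 rose at 1h, 7 at 12h and 5 at 48h, where 5.42%, 16% and 24.5% of all tested genes did, and 1, 0 and 2 fell. Those that fell at 48h were Vcp (−0.66, limma, adjusted p = 0.0017) and Syvn1 (−0.86, adjusted p = 0.0025), and Bach1 (1.94) was among those that rose. From 12h to 48h 2 rose and 3 fell, and as deposited 3 rose and 2 fell at 48h against 0h. Nfe2l1 itself was at 6.20, 7.72 and 8.61 scaled TPM before induction, 12.0, 11.2 and 13.9 after 12h and 11.4, 13.0 and 11.3 after 48h. Its log2 fold change was 0.10 at 1h, 0.72 at 12h (limma, adjusted p = 0.00562) and 0.67 at 48h (adjusted p = 0.00482), and as deposited the 48h value was 0.26 (adjusted p = 0.28). Nfe2l2, the related factor of the oxidative stress response, was at 3.12, 2.63 and 3.18 before induction, 10.7, 10.8 and 9.30 after 1h, 11.2, 11.02 and 8.50 after 12h and 26.5, 27.9 and 19 after 48h. Its log2 fold changes were 1.75, 1.74 and 2.98 (limma, adjusted p = 1.06e-04, 2.7e-05 and 1.39e-07). Mafg, a small partner of both factors, rose most at 1h (2.29, limma, adjusted p = 5.27e-04). Its call at 48h (0.85, limma, adjusted p = 0.0315) was lost without 0h replicate 1 or 3 or without 48h replicate 2 or 3. Among the ubiquitin genes Ubb rose (0.72, limma, adjusted p = 3.83e-04) and Rps27a fell (−1.72, adjusted p = 3.15e-04) by 48h, and as deposited the value of Ubb was 0.30 (adjusted p = 0.154).

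RefSeq windows of 300 bases (250 before to 50 after the gene start, GRCm38.p6) were at hand for 38 of the 46 members, and 4 short motifs, none of which contains another, were searched on both strands. CCGGAA, the core of ETS family sites, was held by 20 of 38 members (52.6%), by 16.7% of all 27025 symbols and by 32.1% of the 9515 tested ones with a window. TGACNNNGC, the antioxidant response element that NFE2L1 and NFE2L2 bind, was in 6 of 38 (15.8%), beside 13.99% of all and 16.7% of the tested symbols. Of these holders Psmb5 and Psmb6 fell by 48h, Psme4 rose, and Psmc6, Psmd9 and Psmd12 were not called. CCAAT was in 13 (34.2%, against 41.1% and 43.2%), and TTGCNNAA, a C/EBP motif, in 4 (10.5%, against 12.2% and 10.1%). The median GC content of the windows was 57.3% for members, 60% for tested symbols and 52.7% for all. A match of letters is a description of the sequence only. The bases upstream of the start are shown for 3 genes with a large fall at 48h, Psmb5 and Psmb6 with their TGACNNNGC and Psmg1 with its CCGGAA in capitals, the first at chr14:54618023-54618245 (minus strand, bases −250 to −28 from the RefSeq start, with the motif at −47 to −39), the second at chr11:70525107-70525356 (plus strand, motif at −9 to −1) and the third at chr16:95990961-95991210 (minus strand, motif at −69 to −64).
Psmb5: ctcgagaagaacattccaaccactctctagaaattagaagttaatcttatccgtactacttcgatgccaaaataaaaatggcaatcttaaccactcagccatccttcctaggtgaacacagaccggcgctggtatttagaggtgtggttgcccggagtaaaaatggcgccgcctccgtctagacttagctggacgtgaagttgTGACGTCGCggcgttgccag
Psmb6: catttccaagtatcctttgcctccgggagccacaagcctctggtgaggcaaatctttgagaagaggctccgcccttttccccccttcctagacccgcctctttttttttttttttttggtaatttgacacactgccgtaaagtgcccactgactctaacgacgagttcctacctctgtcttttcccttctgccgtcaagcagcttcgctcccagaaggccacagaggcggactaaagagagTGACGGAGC
Psmg1: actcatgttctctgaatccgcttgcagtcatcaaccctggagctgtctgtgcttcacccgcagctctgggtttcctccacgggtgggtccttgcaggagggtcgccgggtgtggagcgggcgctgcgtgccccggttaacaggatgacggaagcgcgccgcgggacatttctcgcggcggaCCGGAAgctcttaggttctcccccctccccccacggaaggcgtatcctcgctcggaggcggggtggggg

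Promoter Capture Hi-C listed a captured promoter for 43 of the 46 members, all but Psma8, Psmd9 and Psme2b. Each list is from merged replicates, so these numbers have no replicate check and no test. The members had a median of 11 interactions at each time point, beside 8, 7, 7 and 7 at 0h, 1h, 12h and 48h for the 11817 tested genes with a captured promoter, and with a score of at least 10 the median at 0h was 1 for both. From 0h to 48h the number was higher for 17 members (39.5%), lower for 22 (51.2%) and equal for 4, where 39.7% and 49.0% of the tested genes went up and down. Of the 0h interactions of members 55.1% were listed again at 48h, beside 55.5% for the tested genes, and 76.7% beside 78.4% when ends within 10 kb counted as the same.

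Single members differed widely in their contacts. Psmb1 had the most, with 104, 79, 71 and 79 interactions at 0h, 1h, 12h and 48h. These are totals over its 2 captured fragments, at least 1 of them shared with Tbp. Psmd11, whose RNA was not called, went from 48 to 17, and Psmb4, whose RNA fell, from 15 to 4. Of these 0h interactions only 6 of Psmd11 and 1 of Psmb4 had a score of at least 10. With ends within 10 kb counted as the same, 27 of Psmd11 and 6 of Psmb4 were listed again at 48h. Psme1 had 6, 13, 17 and 20 interactions and Psme2 13, 16, 11 and 5, and the captured fragments of these neighbours on chromosome 14 were in contact with each other at all 4 time points. The chaperone gene Psmg1 had 8, 11, 11 and 12, and Psmb5, which shares a captured fragment with Psmb11, had 8, 11, 12 and 14 while its RNA fell. The captured fragment of Psme1 also holds Emc9 and Fitm1, and that of Psme2 also holds Rnf31, so their contacts cannot be assigned to one gene.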

How the data were processed

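RNA libraries had been made from RNA depleted of ribosomal RNA, with a kit that does not mark the strand. TPM deposited by the authors come from RSEM, after merging of technical replicates, trimming (Trim Galore 0.6.2) and mapping to mm10 (HISAT2 2.1.0). The authors' own test, DESeq2 on counts, was not repeated here. Interactions of Promoter Capture Hi-C had been called by CHiCAGO from 2 merged replicates. The score that the authors deposited for 0h was used only as at least 5 or at least 10. Whole numbers stand in its place in the other lists and, as their unit is not named, were left aside. Hi-C was not analysed here.

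Deposited TPM were divided by median-of-ratios size factors over the 11246 genes above 0 in all 12 libraries, because unscaled TPM move with the ribosomal RNA share. Genes entered the test at a mean of 0.1 TPM or more, which left 16415, and log2(scaled TPM + 0.1) was fitted with limma 3.58.1 in R 4.3.3 (all 4 time points in 1 model, eBayes with trend, two-sided). Benjamini-Hochberg adjustment covered all of these genes, and an adjusted p under 0.05 was called. Fold changes of low genes depend on the 0.1 added and are mostly understated.

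The members and lists were chosen with earlier results of these data known. Genes were named by rule: the 3 largest called changes in each direction, catalytic subunits, activators, the inhibitor, the most abundant gene of each role group and those that differed from their group, and, of the other genes, the largest called change of each list, the inducible subunits, Pomp, Nfe2l1 and Nfe2l2. Some genes that the rule would name are not reported here. Other names were chosen after their values were seen. Transcripts were aligned with BLAST 2.17.0, and Python 3.11.15 with numpy 2.4.6 and pandas 2.3.3 served for counting. Alternatives varied scaling, pseudocount, filter, trend, threshold, replicate block, the libraries in the fit and each library left out. The model was tested on simulated data.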

Additional observations from a re-analysis of the deposited data

How the results depend on the processing

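Scaling changed most. With TPM as deposited, 8 members rose and 0 fell at 1h (median 0.44), 1 fell at 12h (median 0.13), 1 rose at 48h against 0h (median −1.10) and 1 rose and 38 fell from 12h to 48h (median −1.18), and of the other pathway genes 9 rose and 0 fell at 1h, 0 fell at 12h, 4 rose at 48h, and 1 rose and 23 fell from 12h to 48h. The signs of Psma1 (0.049) and Psmd8 (0.15) at 1h and of Psmd11 (−0.69) from 12h to 48h also turned. With quantile normalization 0 members fell at 1h (median −0.10) and 5 at 12h, the 12h to 48h median was −0.61, and 1 other pathway gene fell at 1h. Without the 20 most abundant genes 0 members fell at 1h (median −0.0365) and 3 at 12h (median −0.088), the 12h to 48h median was −0.63, and of the other genes 2 fell at 1h, 2 fell at 12h and 4 rose from 12h to 48h. At 1h, 2 members and 3 other genes fell with no filter, 1 and 1 without the trend, and 2 members with only the 6 libraries compared, where from 12h to 48h 9 members fell and 3 other genes rose and 3 fell. A pseudocount of 1 gave a 48h median of −0.62, and one of 0.01 left 1 member higher from 12h to 48h. Beyond 1 on the log2 scale, 0, 1, 13 and 3 members fell at 1h, 12h, 48h and from 12h to 48h, and of the other genes 0 fell at 1h and at 12h, 5 rose and 4 fell at 48h, and 3 rose and 1 fell from 12h to 48h. Contacts with a score of at least 10 had a median of 1 per member at 0h.

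Without single libraries, 1 to 6 members fell at 1h (median −0.27 to −0.19), 6 to 12 at 12h (median −0.30 to −0.18), 22 to 28 at 48h with 3 higher (median −0.75 to −0.65), and 8 to 15 from 12h to 48h with 2 to 3 higher (median −0.46 to −0.32). Of the other genes 3 to 4 rose and 0 to 8 fell at 1h, 5 to 7 and 2 to 7 at 12h, 6 to 9 and 12 to 13 at 48h, and 4 to 7 and 5 to 9 from 12h to 48h.

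Replicate numbers were not taken as pairing the samples, since not every pair correlated over 0.1. Over 18 pairs of same-numbered libraries the deviations correlated from −0.011 to 0.257, 7 pairs over 0.1, and 7 of 12 libraries correlated best with their own number. The replicate 3 libraries deviated together, with correlations of 0.081 to 0.257. With the replicate number as a block, 0 members rose and 4, 11 and 28 fell at 1h, 12h and 48h (3 rose at 48h), 2 rose and 16 fell from 12h to 48h, and 9 other genes fell at 1h. Of 116 comparisons of a named gene, 46 were past the threshold. Over the settings other than left-out libraries, 3 values changed sign against a call, 59 lost and 31 gained a call, and 1063 kept theirs. Depth is unknown from TPM, and how far it limits the low genes (Psmg1 to Psmg4, Psme2b, Psmb11) could not be measured. Where no cause is given, the cause was not tested.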
